A study of Mus musculus with 10 samples.

Results

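The genes that encode Ctcf and the cohesin machinery were examined in the ChIP-seq peak lists of AB17 hepatocytes. The set held 9 genes chosen by name, Ctcf, Rad21, Smc3, Stag1, Nipbl, Mau2, Wapl, Pds5a and Pds5b, of 21938 protein-coding genes annotated by GENCODE vM21 on chromosomes 1 to 19, X and Y. The region of a gene was its body with 20 kb on each side in mm10, and the 9 regions spanned 66.6 to 402 kb each and 1327 kb in all. AB17 is 1 line of hepatocytes from C57BL/6 mice with a floxed Arid1a gene (Arid1a fl/fl), immortalized with SV40 large T antigen and an activated H-Ras, features that both groups shared before infection. The wildtype (WT) cells had received the adenovirus Ad-GFP and kept Arid1a, and the Arid1a-/- knockout (KO) cells had received Ad-Cre, so every difference between genotypes is also a difference between 2 viral infections. H3K9me3 and H3K27me3 were profiled in both genotypes, and Ctcf, Rad21, Brg1 and Arid1a in WT cells.

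Cohesin is a ring of Smc1a, Smc3 and Rad21 with a Stag1 or Stag2 subunit, and it extrudes chromatin into loops. Nipbl with Mau2 loads the ring and drives its movement, Wapl with Pds5a or Pds5b releases it, and Ctcf bound to DNA in a given orientation halts it and so places loop anchors and domain borders. Brg1 and Arid1a are subunits of the SWI/SNF (BAF) chromatin remodelling complex, H3K9me3 marks constitutive heterochromatin, and H3K27me3 is the Polycomb mark of repressed genes.

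Each deposited list gave 1 summit per peak with a −log10 q-value, here called its strength, which ranks summits within a list and is not comparable between antibodies. Each group was 1 library, so no difference had a replicate check and no p-value is given. The lists do not give the read depth, and the intervals below allow for counting error alone, although summits close together are not independent. The lists held 70408 to 143835 summits, and the median strength was 4.02 for Ctcf, 3.34 for Rad21 and between 2.47 and 2.75 for the other 6 lists. Peak lists show no transcripts, so the hepatocyte identity could be looked at only through the marks. Of 6 hepatocyte markers, Ttr, Krt8 and Krt18 had no H3K27me3 summit in their regions in either genotype. Hnf4a had 30 in WT and 23 in KO cells, Alb had 11 and 2, and Apoa1 had 7 and 9. Among markers of other cell types, Pecam1 (endothelial) and Col1a1 (fibroblast) also had none in either genotype. Cdh5, Kdr, Ptprc, Cd68 and Pdgfrb had 28, 3, 4, 1 and 7 in WT cells. Absence of the mark thus did not separate hepatocyte markers from the others. The removal of Arid1a could not be checked in these lists either, because they hold no reads. The paper identified the knockout in AB17 cells by PCR and Western blot after the infections.

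To ask where the 4 factors lay on the genes that build and steer cohesin, the summits of each list were counted over the 9 regions. They held 81 Ctcf, 66 Rad21, 129 Brg1 and 119 Arid1a summits in WT cells. Per Mb this was 61.0 Ctcf summits (95% exact Poisson interval 48.5 to 75.9), against 51.8 over the regions of all protein-coding genes. For Rad21 it was 49.7 (38.5 to 63.3) against 56.4. For Brg1 it was 97.2 (81.2 to 116) against 44.0, and for Arid1a 89.7 (74.3 to 107) against 37.9. The Ctcf and Rad21 intervals thus held the value of all protein-coding gene regions, and the Brg1 and Arid1a intervals lay above it, at 2.21 and 2.36 times that value. At a strength of at least 3 these ratios were 2.14 and 2.22, and at 5 or more the regions held 5 Brg1 and 0 Arid1a summits. The density of these lists differs between chromosomes, so each region was also set beside the median protein-coding gene of its own chromosome. All 9 regions exceeded it for Brg1 and all 9 for Arid1a, whereas 3 of 9 did so for Ctcf and 2 of 9 for Rad21.

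**Figure D1:**
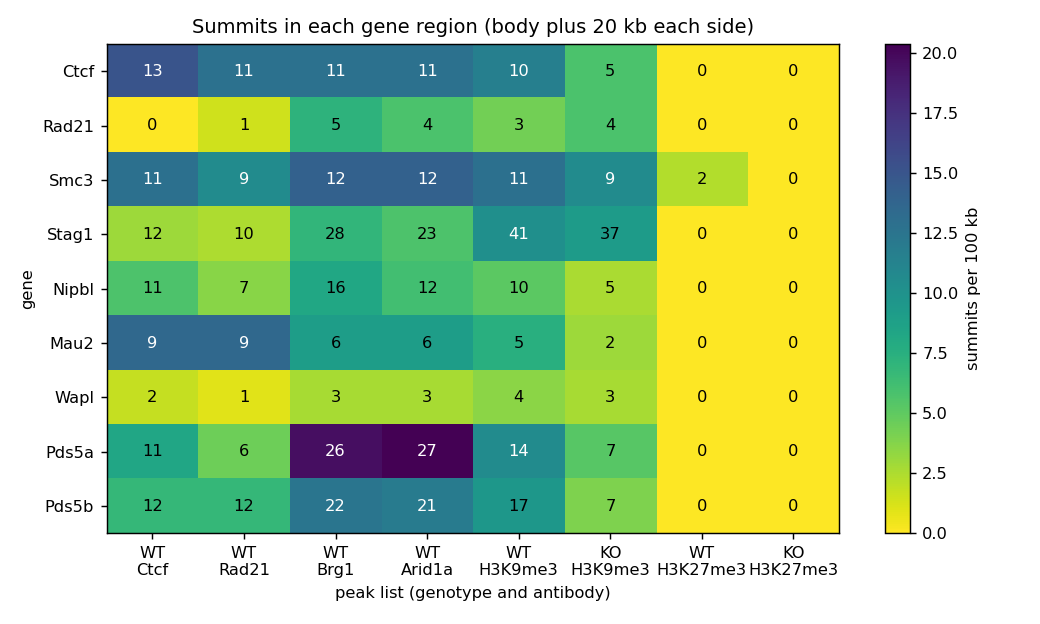
Summits of the 8 peak lists (columns, genotype and antibody) in the regions of the 9 genes (rows), with the count printed in each cell and the colour giving summits per 100 kb. Pds5a holds the densest Brg1 and Arid1a cells, at 19.6 and 20.4 per 100 kb, the Rad21 row is nearly empty for Ctcf and Rad21, and both H3K27me3 columns hold no summit apart from 2 WT summits at Smc3.

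At the gene starts, the set divided into genes with a strong Ctcf and Rad21 summit and genes without. A Ctcf summit lay within 2 kb of the start in 5 of the 9 genes, beside 42.5% of all protein-coding genes, and a Rad21 summit in 8 of 9, beside 50.6%. At a strength of at least 3, 5 of the 9 genes kept a Rad21 summit there, since those at Rad21, Stag1 and Wapl were weak. The share of all genes at that strength was not computed. In all 5 genes with a Ctcf summit it had a Rad21 summit within 1 kb (33.2% of all genes). In the same 5, Ctcf, Smc3, Nipbl, Pds5a and Pds5b, the Ctcf summit had a strength of at least 20, a limit chosen after the values were seen. Such a strong pair lay at the start of 11.5% of all genes.

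Ctcf (ENSMUSG00000005698, chr8:105636568-105682922, plus strand), the zinc finger protein that halts cohesin, carried a Ctcf summit in its own first 2 kb. It lay 215 bp inside the gene, in an intron, with a strength of 65.0, and a Rad21 summit of 23.4 lay 21 bp away. A second strong Ctcf summit of 57.5 lay 14067 bp upstream, with a Rad21 summit of 34.0 at 60 bp. The Ctcf region had 13 Ctcf and 11 Rad21 summits, and its Ctcf density of 15.1 per 100 kb was the highest of the set. Its surroundings are rich in genes. The antisense gene Agrp starts 825 bp inside Ctcf, so the start windows of these genes overlap and their summits cannot be told apart. A further Ctcf summit of 18.5 with Rad21 of 7.97, 49.4 kb from the start, lay at the start of Carmil2 in the downstream flank.

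The genes of the ring differed among themselves. Rad21 (ENSMUSG00000022314, chr15:51962240-51991747, minus strand), the subunit that closes the ring, had no Ctcf summit in its region and 1 weak Rad21 summit of 2.15, lying 443 bp inside the gene. No other protein-coding gene overlapped its region. Smc3 (ENSMUSG00000024974, chr19:53600398-53645833, plus strand), a coiled-coil ATPase of the ring, was flanked by strong pairs. Ctcf of 63.5 with Rad21 of 14.5 lay 485 bp before its start, and Ctcf of 57.4 with Rad21 of 29.8 lay 48557 bp from the start, past its end. Stag1 (ENSMUSG00000037286, chr9:100597798-100959375, plus strand), the subunit through which cohesin touches Ctcf, held the strongest summits of the set for both proteins. They lay 45789 bp inside the gene, in an exon, with a Ctcf strength of 119 and a Rad21 strength of 75.8, 18 bp apart. Only 0.140% of Ctcf summits and 0.0905% of Rad21 summits genome-wide were at least as strong. The outermost start of Stag1 had a weak Rad21 summit of 2.12 and no Ctcf summit.

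The Stag1 position shows how the choice of start enters these counts. The strong pair lay 13 bp from an annotated start of a shorter Stag1 transcript, and the start that RefSeq gives for the gene is 45650 bp inside the GENCODE gene record. Counted over every annotated transcript start, 6 of 9 genes had a strong pair, beside 16.2% of all protein-coding genes. Stag1 and Pds5a have 14 such starts each and Nipbl has 1, so this count gives long genes more chances.

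The loader genes were unlike each other. Nipbl (ENSMUSG00000022141, chr15:8290617-8444463, minus strand), the large loading subunit, had a Ctcf summit of 30.3 at 998 bp before the start and another of 25.5 at 6879 bp before it. Rad21 summits of 7.06 accompanied both, at 224 and 10 bp. Mau2 (ENSMUSG00000031858, chr8:70016123-70042734, minus strand), its partner, had neither factor within 2 kb of its start, which lies 79 bp from the start of the divergent gene Sugp1. Its strongest Ctcf summit of 25.3, with Rad21 of 17.6, lay in the downstream flank 40898 bp from the start, and a Ctcf summit of 8.59 lay 2463 bp upstream.

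Among the release genes, Wapl (ENSMUSG00000041408, chr14:34673928-34747983, plus strand), which opens the ring, stood with Rad21 at the low end. Its region held 2 Ctcf summits, the stronger at 4.73 in the downstream flank, and 1 Rad21 summit of 2.72, lying 500 bp inside the gene. Chromosome 14 was sparse in these lists, with 1.88 Ctcf summits per 100 kb over its whole length against 1.75 in the Wapl region. The median protein-coding gene region of that chromosome had 3.885, so Wapl lay below it. For Rad21 that median was 2.583, against 0.877 at Wapl. Pds5a (ENSMUSG00000029202, chr5:65605721-65698273, minus strand), a regulator that binds Wapl, had Ctcf of 79.7 and Rad21 of 34.9 in an exon 1354 bp inside the gene, 54 bp from one of its own transcript starts. Pds5b (ENSMUSG00000034021, chr5:150673739-150810690, plus strand), its paralogue, had Ctcf of 71.8 and Rad21 of 32.1 at 20 and 26 bp before the start, and a further pair of 52.8 and 16.2 at 7839 bp upstream, near the start of N4bp2l2.

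**Figure D2:**
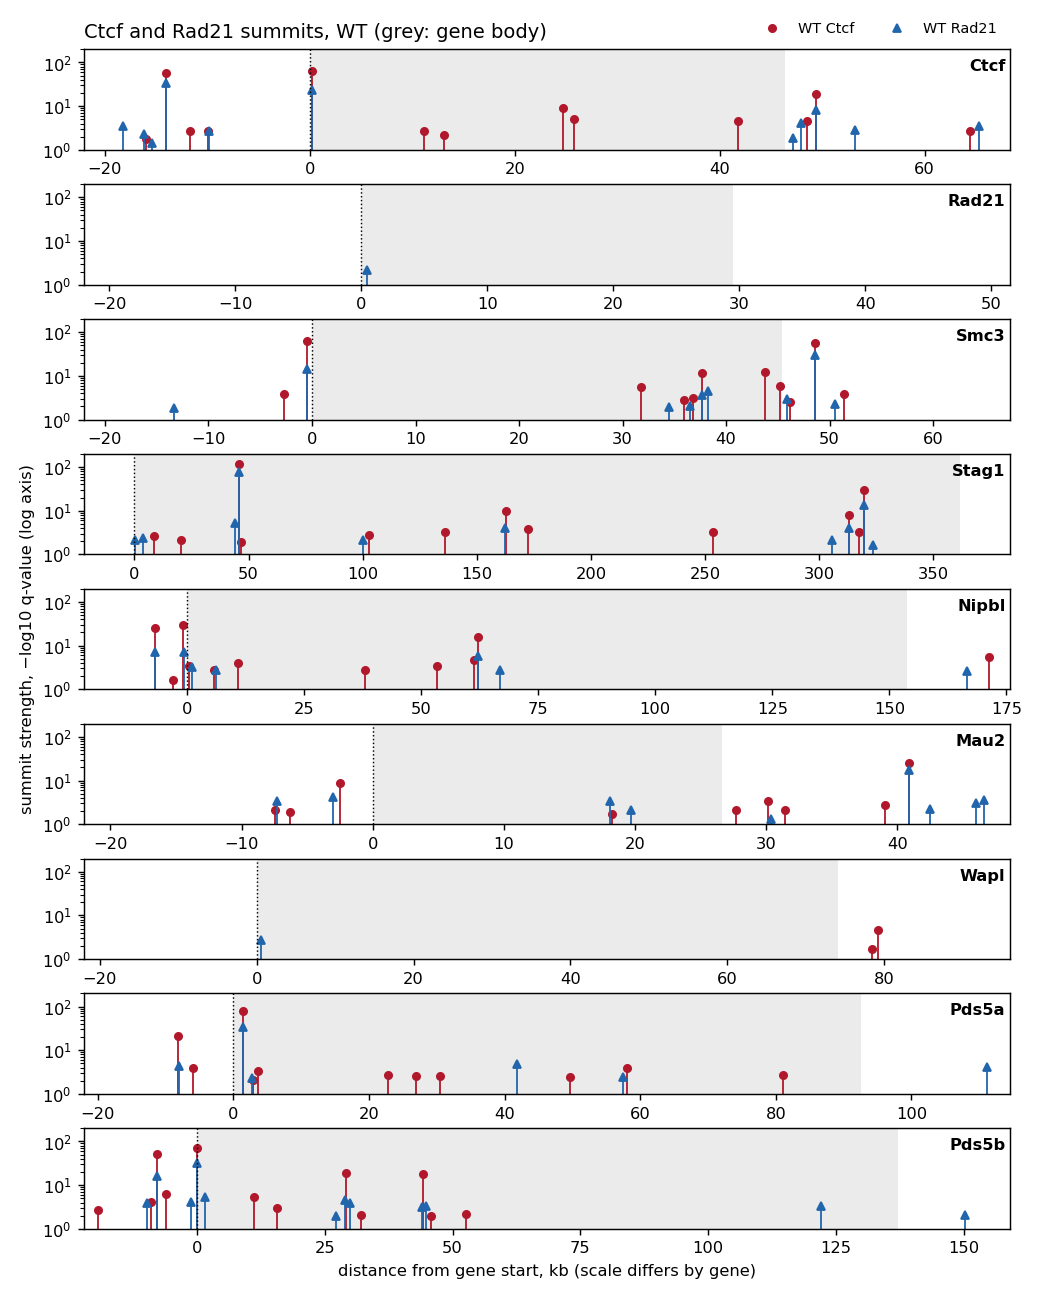
Ctcf summits (circles) and Rad21 summits (triangles) of WT cells by distance from the gene start in kb, in the direction of transcription, with strength as −log10 q-value on a log axis and the gene body in grey. Ctcf, Smc3, Nipbl, Pds5a and Pds5b have a tall pair at the start, the tallest pair of Stag1 stands 45.8 kb inside, and Rad21 and Wapl hold at most 2 low summits of either factor.

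Over the 9 regions, 13 Ctcf summits had a strength of at least 20, and each had a Rad21 summit within 224 bp at a median distance of 21 bp. In the whole Ctcf list, 98.0% of the 16434 summits of that strength had a Rad21 summit within 1 kb, and the median distance was 48 bp, so nearly all strong summits of the list as a whole were paired too. Among all 66 Rad21 summits of the regions, 63.6% had a Ctcf summit within 1 kb (95% exact binomial interval 50.9 to 75.1), against 52.0% of the whole list. Conversely, 51.9% of the 81 Ctcf summits (40.5 to 63.1) had a Rad21 summit within 1 kb, against 55.7%.

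**Figure D3:**
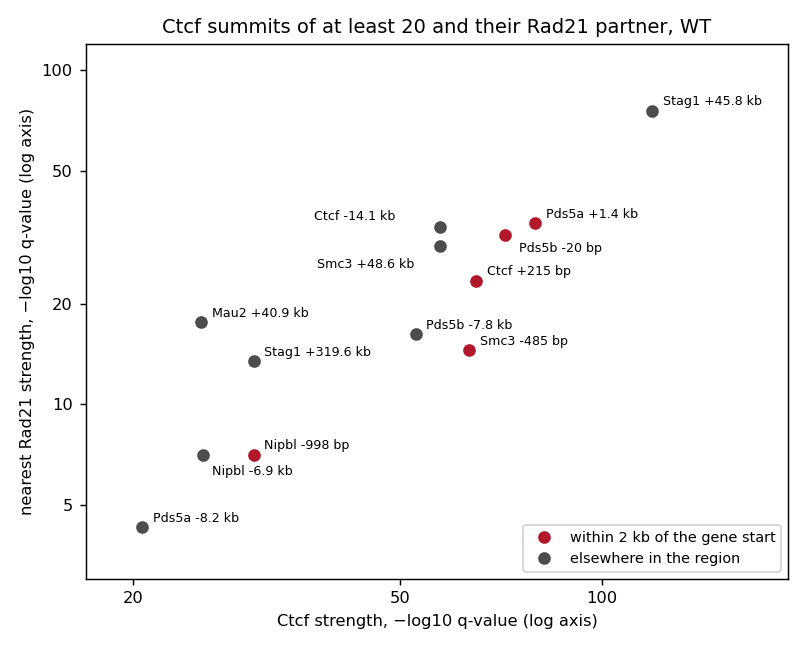
Strength of the 13 Ctcf summits of at least 20 in the 9 regions (horizontal) and of the nearest Rad21 summit (vertical), both as −log10 q-value on log axes, with the gene and the distance from its start beside each point and starts in red. The Rad21 strengths run from 4.29 at Pds5a to 75.8 at Stag1, and the 5 pairs at gene starts spread from 7.06 to 34.9.

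The sequences under the strong pairs are given with their match to the Ctcf consensus, the 12-base core of the known Ctcf motif, searched on both strands within 50 bp of the summit. They are shown for the start pairs and the Stag1 summit, and for the other pairs with at most 2 mismatches, because these are the positions on which the account of the gene starts rests. Capitals mark the closest match, the sequence is read 5′ to 3′ on the strand of that match, and each is 30 bases of the GRCm38.p6 assembly.
Stag1, 45789 bp inside (chr9:100643564-100643593, plus strand, 0 mismatches): gcagcgcggCCAGCAGAGGGCggtcgggac
Pds5b, 20 bp before the start (chr5:150673684-150673713, plus strand, 1 mismatch): gccgtgcggCCGGTAGGGGGCgctgagaac
Smc3, 485 bp before the start (chr19:53599900-53599929, plus strand, 1 mismatch): ggctcggaaCCAGCAGGAGGCgctctgagc
Smc3, 48557 bp from the start (chr19:53648900-53648929, plus strand, 1 mismatch): tccccgtagCCACTAGAGGGAgcccttgat
Pds5b, 7839 bp before the start (chr5:150665863-150665892, minus strand, 1 mismatch): cgcgtccatCCACCTGGGGGCgccaagcac
Pds5a, 1354 bp inside (chr5:65696914-65696943, minus strand, 2 mismatches): cgatagaggCCGGTAGAGGACtgtgagaga
Ctcf, 215 bp inside (chr8:105636750-105636779, plus strand, 2 mismatches): cgcgggccgCCTCTAGGTGTCacgatgggg
Mau2, 40898 bp from the start (chr8:70001839-70001868, minus strand, 2 mismatches): ccttagaggACAGAAGGGGGCgttggatcc
Nipbl, 998 bp before the start (chr15:8445449-8445478, plus strand, 3 mismatches): gggataaggCCTGTAGGCGACgctgtgcaa

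Within 50 bp, the Stag1 summit, the strongest of the set, was the site with a match at 0 mismatches. Within 100 bp, 2 of the 13 strong Ctcf summits had such a match, against 26.5% of the strong summits of the list. Of the 6 Rad21 summits with a strength of at least 20, 2 had such a match within 50 bp, against 20.3% of that list at this strength. Near the Nipbl summit 3 matches tied at 3 mismatches each, and the one closest to the summit is shown. The 4 sites not shown had 3 or 4 mismatches within 50 bp. The matched strand was that of the gene at 9 of the 13 sites, and the Smc3 sites before its start and past its end were both on the plus strand. The count of 9 includes sites with 3 or 4 mismatches, some of them with several equally good matches, where the strand is poorly defined. With at most 1 mismatch, 5 of the 13 strong summits (38.5%) had a match, against 56.2% of the strong summits of the whole list. With at most 2 mismatches it was 8 of the 13 (61.5%), against 74.6%. Of the strong summits of the list, 8.61% had a match of that kind after every position was moved by 2 kb. The share with 3 mismatches was not computed. Over all 81 Ctcf summits of the regions the share with at most 1 mismatch was 16.0% (95% exact binomial interval 8.83 to 25.9), against 21.4% of the list. After every position was moved by 2 kb, it was 4.94% for these 81 summits (4 of 81) and 1.54% for the list. Of the 66 Rad21 summits 13.6% had a match (6.43 to 24.3), against 11.0% of that list. The members thus held no larger share of matches than their lists beyond counting error. A match is a sequence description, and its absence says only that these letters were not found in the window.

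At Pds5b the strong pair at the start lay inside the RefSeq promoter entry, whose start is 88 bp inside the GENCODE gene record. The RefSeq promoter table (250 bases before to 50 after the start, GRCm38.p6) held entries for 7 of the 9 genes, not for Nipbl and Rad21, and the Pds5b entry was the one with a Ctcf and a Rad21 summit inside it. Of 32851 promoters in that table, 4.33% had a match with at most 1 mismatch and 29.8% had one with at most 2. Pds5b was the one of the 7 genes with a match at no more than 1 mismatch. The 162 bases of that entry up to the GENCODE start are printed with the match in capitals.
Pds5b promoter (chr5:150673577-150673738, plus strand): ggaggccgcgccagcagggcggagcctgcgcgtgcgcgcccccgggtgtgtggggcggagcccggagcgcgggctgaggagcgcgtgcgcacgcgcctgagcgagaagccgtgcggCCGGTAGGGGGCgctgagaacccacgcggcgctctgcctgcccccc

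The SWI/SNF subunits were present in all 9 regions, with median strengths of 2.56 for Brg1 and 2.70 for Arid1a that equalled the medians of their lists. A Brg1 summit lay within 2 kb of the start in 7 of 9 genes, beside 39.6% of all protein-coding genes, and an Arid1a summit in 6 of 9, beside 35.2%. Ctcf, Rad21, Smc3, Nipbl and Pds5a had both, and the share of all genes with both was not computed. Mau2 had 3 Brg1 summits and Pds5b had 1 with no Arid1a summit, Wapl had 1 Arid1a summit and no Brg1 summit, and Stag1 had neither at its outermost start. The strongest Brg1 summit of the set, 6.64, lay 1220 bp inside Pds5a, 134 bp from the strong Ctcf summit. At Smc3, Brg1 summits of 5.79 and 4.08 lay 203 and 1716 bp inside the gene, and an Arid1a summit of 3.45 lay 60 bp before the start. At Nipbl, 4 Brg1 summits of up to 5.20 and 1 Arid1a summit of 3.33 surrounded the start. At the Ctcf gene, Brg1 of 4.68 and Arid1a of 3.76 lay 869 and 649 bp before the start. At Rad21 both were near the calling threshold, at 1.47 and 1.39, lying 155 bp inside and 244 bp before the start.

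In number, most Brg1 and Arid1a summits lay in the gene bodies outside the start windows, 89 of 129 and 79 of 119. The bodies also made up most of the length of the regions. Gene bodies alone gave 102 Brg1 and 84.8 Arid1a summits per Mb, against 97.2 and 89.7 over the whole regions. The start windows, 2 kb on each side of the start, held 16 and 8 summits. Pds5a had the densest cover, with 26 Brg1 and 27 Arid1a summits, or 19.6 and 20.4 per 100 kb, against medians of 7.67 and 7.07 for the protein-coding genes of chromosome 5. Pds5b on the same chromosome had 22 and 21 summits, or 12.4 and 11.9 per 100 kb. At Wapl, 3 summits of each gave 2.63 per 100 kb, on a chromosome where the median protein-coding gene region had 0 of either. The 5 Brg1 summits of strength 5 or more made 3.88% of those in the regions, against 3.95% of the whole list, and for Arid1a, where the regions held none, the whole list had 2.49%. Of the Brg1 summits, 27.9% (20.4 to 36.5) had an Arid1a summit within 1 kb, against 27.5% of the list, and of the Arid1a summits 31.1% (22.9 to 40.2) had a Brg1 summit, against 31.1%.

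At the limit of 1 kb and with all summits counted, Ctcf and Rad21 summits of these regions had a Brg1 neighbour more often than those of the whole lists. A Brg1 summit was within 1 kb of 32.1% of the Ctcf summits (22.2 to 43.4), against 18.2%, and of 34.8% of the Rad21 summits (23.5 to 47.6), against 22.2%. The regions also held more Brg1 summits per Mb, as given above, and the part of that density in the shares was not tested. Within 500 bp the shares were 16.0% for Ctcf (8.83 to 25.9), against 11.4%, and 15.2% for Rad21 (7.51 to 26.1), against 14.3%, so there the intervals held the list values. At a strength of at least 3 in both lists they were 22.9% (12.0 to 37.3) against 9.40% and 20.5% (9.30 to 36.5) against 12.7%, and the second interval held the list value. Read from the other side, 18.6% of the Brg1 summits (12.3 to 26.4) had a Rad21 summit within 1 kb, against 27.4% of the list. Of the 13 strong Ctcf summits, 10 had a Brg1 summit within 1 kb (76.9%, 46.2 to 94.96), against 23.1% of the strong summits of the whole list. An Arid1a summit lay within 1 kb of 6 (46.2%, 19.2 to 74.9), against 17.01%. These distances ran from 134 to 791 bp for Brg1 and from 196 to 864 bp for Arid1a. Shares within 500 bp were not computed for the strong summits, and their limit was chosen after the values were seen. Some of the 13 lay at gene starts, and the part of that in these shares was not tested.

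To address what the marks did on these genes when Arid1a was lost, H3K9me3 summits were compared between the genotypes. The 9 regions held 115 in WT and 79 in KO cells, a ratio of 0.687 (95% exact binomial interval 0.509 to 0.923). The whole lists gave 0.938, and the regions of all protein-coding genes gave 0.736, which lay inside that interval. The ratio on these genes could thus not be told apart from that on protein-coding genes at large. Per Mb the 9 regions held 86.67 WT summits (95% exact Poisson interval 71.55 to 104), against 66.82 over all protein-coding gene regions. For KO summits it was 59.54 (47.14 to 74.2) against 49.2. The WT interval lay above the value of all protein-coding gene regions, and the KO interval held it. By place, 6 WT and 2 KO summits lay at the starts, 60 and 51 in the bodies, 26 and 11 in the upstream flanks, and 23 and 15 in the downstream flanks. The upstream flanks had the ratio 0.423 (0.189 to 0.886) and the bodies 0.850 (0.574 to 1.26), and these intervals overlap.

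Stag1, the longest region at 402 kb, held the largest number, 41 WT and 37 KO summits. Per 100 kb this was 10.2 and 9.21, below 12.9 and 10.5 at Smc3. The WT density was also higher at Ctcf (11.6) and Pds5a (10.6) and was lower in the other regions. Without Stag1 the other 8 regions gave 74 and 42, a ratio of 0.568 (0.379 to 0.840). The counts were 10 and 5 at Ctcf, 10 and 5 at Nipbl, 14 and 7 at Pds5a, 17 and 7 at Pds5b and 5 and 2 at Mau2. In these 5 genes the KO count was at least 2-fold lower, beside 47.8% of the 15331 protein-coding genes with at least 5 summits in both genotypes together, so 5 of 9 was close to that share. The counts were 11 and 9 at Smc3, 4 and 3 at Wapl and 3 and 4 at Rad21. No member had at least 2-fold more summits in KO cells, beside 9.46% of those genes. Rad21 was the gene with more summits in KO than in WT cells, and its interval of 0.226 to 9.10 leaves the direction unresolved. Among the protein-coding genes of the chromosomes concerned, the share at least 2-fold lower ran from 18.4% on chromosome 14, where Wapl lies, to 58.7% on chromosome 15, where Nipbl and Rad21 lie.

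**Figure D4:**
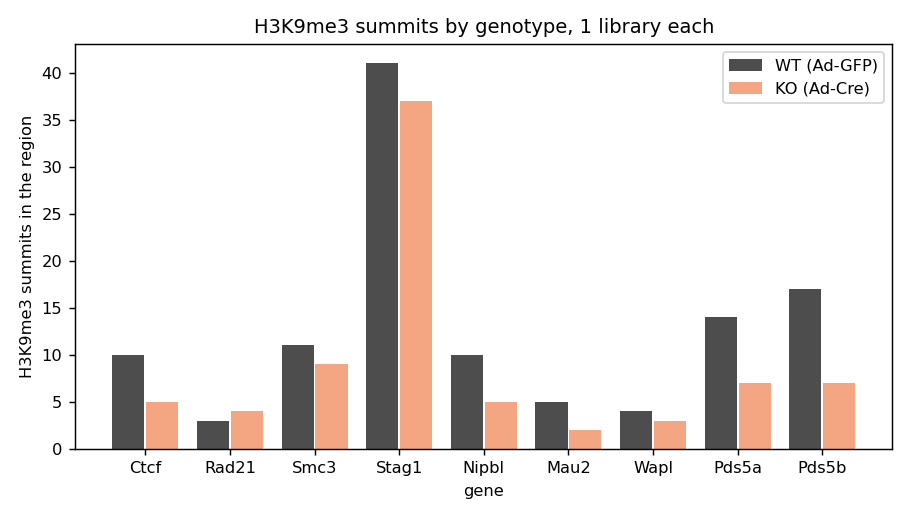
H3K9me3 summits in the region of each gene (vertical, number of summits) in WT cells (grey) and KO cells (orange), 1 library each. Bars are lower in KO cells for 8 of the 9 genes, by 5 summits at Ctcf and Nipbl, 7 at Pds5a and 10 at Pds5b. Stag1 has the tallest bars, 41 and 37, over the longest region, and the bars are not scaled to length.

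At the gene starts, a WT H3K9me3 summit lay within 2 kb in 4 of 9 genes, beside 38.7% of all genes, and a KO summit in 2 of 9, beside 14.0%. Ctcf had a WT summit of 4.03 at 36 bp before the start and no KO summit there. Smc3 had a WT summit of 4.22 at 12 bp before the start and a KO summit of 1.32 at 358 bp inside. Pds5a had 3 WT summits, the strongest of 6.10 at 489 bp inside, and none in KO cells. Stag1 had 1 WT summit of 1.90, and Wapl had 1 KO summit of 2.47, at 1239 bp before the start. Counted over any annotated transcript start, 7 of 9 genes had a WT summit, beside 48.1% of all genes, and the members differ in their number of starts as given above.

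Positions of H3K9me3 were loosely shared between the genotypes. Of the WT summits, 25.2% (17.6 to 34.2) had a KO summit within 1 kb, against 31.1% of the list, and of the KO summits 31.6% (21.6 to 43.1) had a WT summit, against 33.3%. The strongest H3K9me3 summits of the set stood upstream of Smc3 in both genotypes, with 8.48 at 15442 bp in WT cells and 5.70 at 15902 bp in KO cells. Of the WT H3K9me3 summits, 50.4% (41.0 to 59.9) lay within 1 kb of a summit of any of the 4 factors, against 35.9% of the list. Of the KO summits 40.5% (29.6 to 52.2) lay within 1 kb of a factor summit of WT cells, against 19.98%. Factor summits were denser in these regions than over the genome, and their part in these shares was not tested.

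H3K27me3 was nearly absent from the peak lists of these genes. Smc3 had 2 WT summits in its downstream flank, of 2.42 and 4.15 at 59020 and 61629 bp from the start, and no KO summit was listed in any of the 9 regions. Over all protein-coding gene regions the lists gave 52.4 WT and 41.1 KO summits per Mb. No member had an H3K27me3 summit within 2 kb of its start in WT cells, beside 23.4% of all genes, nor in KO cells, beside 19.8%. In 8 of 9 regions there was no summit in either genotype, beside 44.1% of all genes. With flanks of 50 kb the count was 24 WT and 16 KO summits, at 7 and 5 of the 9 genes, beside 68.7% and 61.1% of all genes, with 9 of each at Smc3. With 2 and 0 summits, a difference between genotypes was not detectable at this depth.

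The other genes of the pathway, taken from 3 lists, set these values in context. Of 9 further mitotic cohesin genes (Smc1a, Stag2, Hdac8, Esco1, Esco2, Cdca5, Sgo1, Espl1 and Pttg1), 2 had a strong Ctcf and Rad21 pair at the start, Stag2, the paralogue of Stag1, and Esco1, an acetyltransferase of Smc3. Of 3 other looping factors (Zfp143, Yy1 and Maz), Maz had one, and of 5 meiotic or germline counterparts (Smc1b, Stag3, Rad21l, Rec8 and Ctcfl) none had. H3K27me3 was most frequent at the germline counterparts. The regions of 4 of the 5 held 103 WT and 83 KO summits, and all 4 had a summit within 2 kb of the start in both genotypes. Ctcfl, the germline paralogue of Ctcf, had 36 and 34, whereas Ctcf had none. Rad21l had 30 and 22 beside none at Rad21. Smc1b, which replaces Smc1a in the meiotic ring, had 23 and 20 against 1 and 0 at Smc1a. Stag3 had 14 and 7 beside none at Stag1, and Rec8 had none. Among the mitotic genes, Pttg1 had 6 and 5, Smc1a and Hdac8 had 1 and 0 each, and the remaining 6 had none, as did the looping factors.

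**Figure D5:**
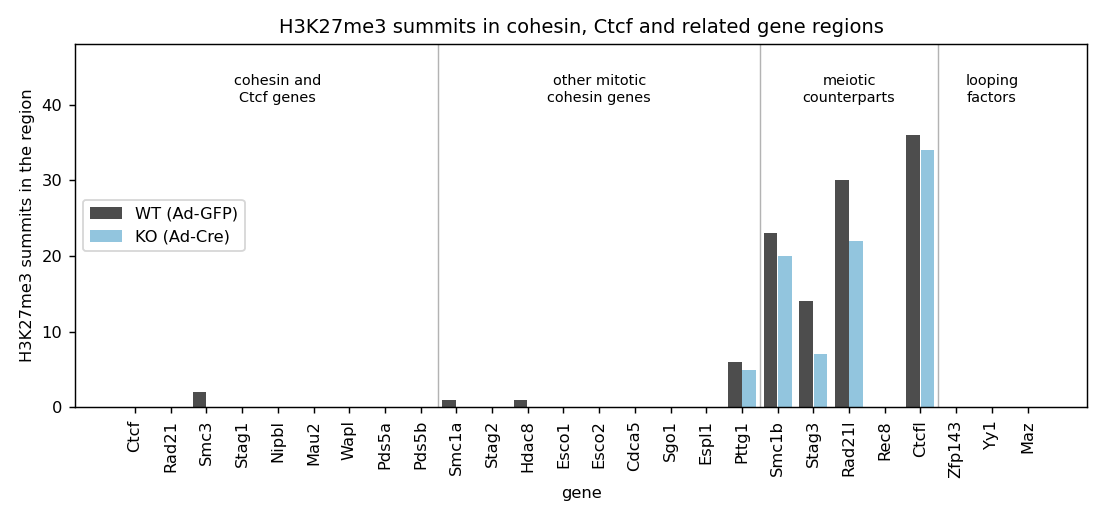
H3K27me3 summits in the region of each gene (vertical, number of summits) in WT cells (grey) and KO cells (blue), 1 library each, for the 9 cohesin and Ctcf genes, 9 other mitotic cohesin genes, 5 meiotic counterparts and 3 looping factors. Bars stand at Smc1b, Stag3, Rad21l and Ctcfl with 7 to 36 summits and at Pttg1 with 6 and 5, Smc1a and Hdac8 have 1 WT summit each, and the 9 cohesin and Ctcf genes show none apart from 2 WT summits at Smc3.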

How the data were processed

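Peak lists of 8 libraries were analysed, 1 per group, grouped by genotype and antibody from the sample titles. The authors aligned reads to mm10 with Bowtie2, filtered them with SAMtools and Picard, and ran MACS2 against input to call peaks. Versions and pooling are not given in the sources used here. Each deposited list held 1-based summit positions with a −log10 q-value, none under 1.30, the −log10 of 0.05. The 2 inputs were not analysed here. Narrow-peak calling splits broad marks into strings of summits, and deeper libraries give longer lists. Summits were placed with GENCODE vM21 by the outermost gene start (within 2 kb), body and 20 kb flank, as the deposited coordinates give them. Partners were summits within 1 kb. Exact intervals came from scipy 1.17.1, and sequences were read with pysam 0.24.0. Counting was tested on simulated lists. Named were the 9 members, their start summits and strongest summits, and 3 pathway lists. Members and lists were chosen with earlier results of these data known. Alternatives changed flank, start window, strength, partner distance and mismatches.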

Additional observations from a re-analysis of the deposited data

How the results depend on the processing

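Of 179 recomputed values for 32 results, 111 stayed within the interval or within 1.5 times the count given, and 68 moved. Most of these results are counts or shares with no direction of their own. Relative to all protein-coding gene regions, the density ratio fell under 1 at a strength of at least 5, where few summits were left. It went from 2.36 to 0 for Arid1a, from 1.297 to 0.895 for WT H3K9me3 (3 summits) and from 1.21 to 0.638 for KO H3K9me3 (2 summits). At that strength all protein-coding gene regions held 1.12, 2.53 and 2.36 summits per Mb. Counts this small leave the direction unresolved. The share of Brg1 summits with Rad21, below its list in the account above, was 60% against 23.3% at a strength of at least 5 (3 of 5 summits). The KO to WT ratio of H3K9me3 summits stayed under 1, between 0.568 and 0.839 under its 10 alternatives, of which the one without Stag1 was chosen after the data were seen. The number of genes with a Ctcf and Rad21 pair at the start, 5, stayed between 4 and 6. The limit of 20 on its strength was also chosen after the data were seen. Apart from that limit, the share of all genes was not computed for the alternatives of this count. Depth is unknown, each group was 1 library, and a stricter limit keeps fewer summits by construction. No paired analysis was possible because each group holds 1 library, and leaving out a replicate was not possible for the same reason.

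With a strength of at least 3, the summits per Mb over the 9 regions were 36.2 for Ctcf, 29.4 for Rad21, 36.9 for Brg1, 27.9 for Arid1a, 27.1 for WT and 18.8 for KO H3K9me3. With at least 5 they were 21.9, 12.1, 3.77, 0, 2.26 and 1.51, and 0 for WT H3K27me3. Gene bodies alone gave 35.2 for Rad21, 64.1 for WT H3K9me3 and 0 for WT H3K27me3. WT H3K27me3 was at 0 with 10 kb flanks and at 12.9 with 50 kb, where KO H3K27me3 was at 8.57. In numbers, the 2 WT H3K27me3 summits became 0 with 10 kb flanks, gene bodies or a strength of at least 5, 1 with a strength of at least 3 or with summits merged within 3 kb, and 24 with 50 kb flanks, where KO cells had 16.

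Genes with a summit at the start numbered 5 for Rad21 at a strength of at least 3 and at least 5. At a strength of at least 5 they were 3 for Brg1, 0 for Arid1a, 1 for WT and 0 for KO H3K9me3. KO H3K9me3 had 0 at a strength of at least 3, 1 within 1 kb and 4 within 5 kb, and WT H3K9me3 had 7 over any transcript start. The last count stood beside 48.1% of all genes. For the other settings the share of all genes was not computed, so a change relative to other genes cannot be read from them.

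With partners within 500 bp, the shares were 45.5% for Rad21 with Ctcf, 35.8% for Ctcf with Rad21, 15.2% for Rad21 with Brg1, 16.0% for Ctcf with Brg1, 7.75% for Brg1 with Rad21, 19.4% for Brg1 with Arid1a, 20.2% for Arid1a with Brg1, 14.8% for WT with KO H3K9me3, 21.5% for the reverse and 34.8% for WT H3K9me3 with any factor. Within 2000 bp they were 75.8% for Rad21 with Ctcf, 48.5% for Rad21 with Brg1, 45.7% for Ctcf with Brg1, 45.7% for Brg1 with Arid1a, 47.1% for Arid1a with Brg1 and 62.6% for WT H3K9me3 with any factor. At a strength of at least 3 they were 20.5% for Rad21 with Brg1, 18.4% for Brg1 with Arid1a and 30.6% for WT H3K9me3 with any factor. At least 5 gave 87.5% for Rad21 with Ctcf, 18.8% for Rad21 with Brg1, 10.3% for Ctcf with Brg1, 60% for Brg1 with Rad21, 0% for Brg1 with Arid1a, 50% for KO with WT H3K9me3 and 33.3% for WT H3K9me3 with any factor. Gene bodies alone gave 12.1% for Brg1 with Rad21.

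The Ctcf consensus was found at 2.47% of Ctcf and 3.03% of Rad21 summits with 0 mismatches and at 30.9% and 25.8% with at most 2, and at 25.9% of Ctcf summits within 100 bp.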
